A study of Macaca mulatta with 56 samples.

Results

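RNA polymerase II, the Mediator complex and the TBP-associated factors (TAFs) of TFIID were followed in the brains of old female rhesus macaques with and without estradiol. Genes were members when their symbol began with POLR2, or with MED or TAF followed by a digit. This gave 62 of the 17807 identifiers in the table, of which 15123 carry a symbol. There were 10 polymerase II subunits, 28 Mediator subunits, 17 TFIID subunits or their paralogues, 2 paralogues found in the SAGA complex (TAF5L and TAF6L), 4 TAFs of the RNA polymerase I selectivity factor (TAF1A to TAF1D) and TAF15, an RNA-binding protein of the FET family. The symbol therefore gathers genes that share a naming scheme, and the last 3 groups are not subunits of TFIID.

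RNA polymerase II makes all messenger RNA. TFIID recognises the core promoter and seats the TATA-binding protein, the general factors assemble beside it, and Mediator relays signals from bound activators, nuclear hormone receptors among them, to the polymerase. Mediator is built from a head, a middle and a tail held by the scaffold subunit MED14, and a separable kinase module can block its contact with the polymerase.

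The animals were 14 ovariectomized and hysterectomized macaques aged 19.4 to 23.2 years, and every animal ate a Western-style diet with 36% of calories from fat. In 7 of them (HT) capsules of estradiol held serum estradiol at 82.1 pg/mL; in the other 7 (OvH) empty capsules left it at 6.6 pg/mL. Each animal gave 1 library of messenger RNA from amygdala, hippocampus, occipital cortex and prefrontal cortex, so that 4 regions by 2 treatments gave 8 groups of 7 libraries. The series text gives 30 months for the study and an average of 32 months for the hormone levels, so the length of exposure is uncertain. Animals with ovaries were not analysed here, and fewer cells of a type cannot be told apart from less RNA per cell in such tissue pieces.

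Libraries held 34.63 to 93.336 mega-reads (median 59.876). Values are the authors' upper-quartile normalized read counts, written below as normalized counts; differences are on the log2 scale of the value plus 1, HT minus OvH, with the standard error (SE) and a Benjamini-Hochberg adjusted p from limma over all identifiers tested, called at 0.05. After this scaling the normalized totals of the amygdala libraries were 55.909 to 69.097 mega-counts in OvH and 62.441 to 75.836 in HT (two-sided exact permutation p = 0.00291).

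Names are less certain outside the amygdala. In the table an identifier may not hold the same transcript in the amygdala columns as in the rest, which was not tested. MBP, a major protein of myelin, had a median of 630324.8 normalized counts in amygdala and 0 elsewhere. A member was therefore used in the other regions only where its mean log2 level there lay within 2 of that in amygdala, which 49 of 62 members met and 13 did not. The 13 include POLR2A, the catalytic subunit (mean log2 level 11.84 in amygdala and 7.68 elsewhere), and MED23 (10.99 and 0.02). Of the members that met the limit, those nearest to it were MED31 (1.22 lower outside amygdala) and TAF1D (1.57 lower). Of those that did not, the nearest were MED16 (2.29 higher) and TAF7L (3.13 lower). A matching level does not prove a name, and levels in amygdala were not tested against the other regions because the limit constrains them. All 62 members passed the filter on low values in amygdala, and all 49 in the other regions.

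In amygdala 12 members rose with estradiol and 0 fell. That is 19.35% of the 62, where 6.16% of all 16129 identifiers tested were higher and 0.732% lower. The genes that rose were POLR2F, POLR2G and POLR2H of the polymerase, MED7, MED21, MED30 and MED31 of Mediator, TAF9, TAF11, TAF12 and TAF13 of TFIID, and TAF1D. Rises ran from 1.48-fold (TAF9) to 2.21-fold (MED31). The members did not move as a block: 34 differences lay above 0 and 28 below, with a median of 0.08 against 0.01 over all identifiers. At an unadjusted p under 0.05 there were 19 members, against 21.5% of all identifiers. In 11 of the 62, at least 6 HT libraries exceeded every OvH library, as in 5.16% of all identifiers.

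**Figure D1:**
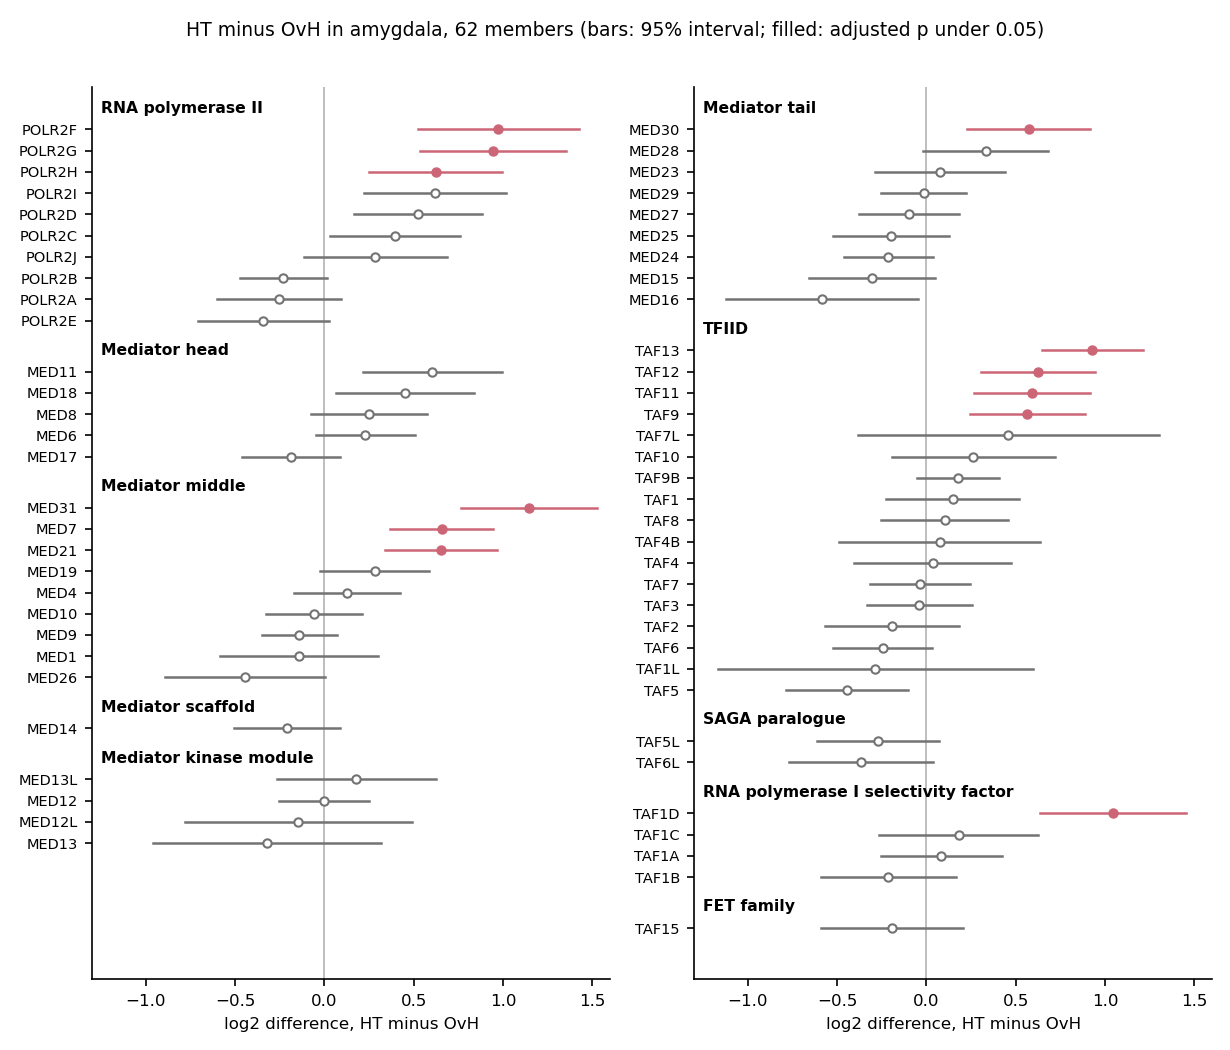
Difference between HT and OvH in amygdala for the 62 members, grouped by complex and module; the horizontal axis is the log2 difference of normalized counts, points are the estimates, bars the 95% interval (7 libraries a group), and filled points have an adjusted p under 0.05. The 12 filled points lie between 0.57 and 1.15, while POLR2A, MED14 and the kinase module lie between -0.32 and 0.18 with intervals that include 0.

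Of the 10 polymerase subunits 3 rose, and the group's median difference was 0.46. POLR2G (ENSMMUG00000014368), which forms the stalk of the enzyme with POLR2D, had 3470.7, 5102.4 and 6427.7 normalized counts in OvH (lowest, median, highest) and 5152.4, 10668.2 and 11982.4 in HT. In 6 of 7 HT animals it was above every OvH animal, and the difference was 0.94 (SE 0.19, adjusted p = 0.00895). Its stalk partner POLR2D had a difference of 0.52 that did not pass the test (adjusted p = 0.0771).

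POLR2F and POLR2H are subunits that RNA polymerases I, II and III have in common. POLR2F (ENSMMUG00000006987) had 2803.4, 5104.9 and 7727.0 normalized counts in OvH and 5855.9, 9182.3 and 14251.5 in HT. Again 6 HT animals stood above every OvH animal (difference 0.97, SE 0.21, adjusted p = 0.0123). POLR2H (ENSMMUG00000007524) had 2466.1, 3775.9 and 5162.1 in OvH and 3264.5, 5539.2 and 6784.6 in HT. The lowest HT library lay inside the OvH range, and the difference was 0.62 (SE 0.18, adjusted p = 0.0422). POLR2E, also common to the 3 polymerases, had a difference of -0.34 (adjusted p = 0.27).

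The catalytic subunit POLR2A (ENSMMUG00000023620) was not among the genes that passed. It had 2935.4, 3919.1 and 5945.2 normalized counts in OvH and 2894.6, 3299.9 and 5027.7 in HT. The ranges overlapped, with 6 of 7 HT libraries below the OvH median and 2 below every OvH library; the difference was -0.26 (SE 0.16, adjusted p = 0.404), with a 95% interval from -0.60 to 0.09. POLR2B, its partner in the active-site cleft, had a difference of -0.23 (adjusted p = 0.259). POLR2I and POLR2C had 0.62 and 0.39, neither past the threshold (adjusted p = 0.0588 and 0.195).

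In the middle module of Mediator, which links the complex to the polymerase, 3 of 9 members rose. They were MED7, MED21 and MED31, which are direct partners: MED7 pairs with MED21 in a flexible hinge and holds MED31 at its other end. This link was drawn after the calls were known. MED31 (ENSMMUG00000058158) had 1646.7, 2172.9 and 2578.6 normalized counts in OvH and 2507.1, 4802.6 and 5854.6 in HT (difference 1.15, SE 0.18, adjusted p = 0.00674). MED7 (ENSMMUG00000010993) had 1953.0, 2532.6 and 3039.0 in OvH and 2740.8, 4070.4 and 4433.7 in HT (difference 0.66, SE 0.14, adjusted p = 0.00903). MED21 (ENSMMUG00000003218) had 2553.2, 3530.0 and 4407.8 in OvH and 3964.0, 5548.0 and 6595.3 in HT (difference 0.65, SE 0.15, adjusted p = 0.0149), a call that was lost with the replicate block, which joins the libraries of an animal over all regions (adjusted p = 0.0947). For each of these genes 6 of 7 HT libraries exceeded every OvH library and the remaining one overlapped the OvH group.

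Other middle subunits did not pass the test, with differences of 0.28 for MED19, 0.13 for MED4, -0.06 for MED10 and -0.14 for MED9. MED1 (ENSMMUG00000009132) is the subunit that nuclear receptors, the estrogen receptor among them, bind through its LXXLL motifs. It had 664.5, 1408.3 and 1541.8 normalized counts in OvH and 738.1, 1081.1 and 1836.8 in HT. The ranges overlapped, and the difference was -0.14 (SE 0.21, adjusted p = 0.746; 95% interval -0.59 to 0.30). MED26, which docks elongation factors, had a difference of -0.44 (adjusted p = 0.239).

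The scaffold MED14 (ENSMMUG00000005264) had 756.1, 1080.6 and 1184.6 normalized counts in OvH and 726.4, 828.5 and 1077.7 in HT. These ranges also overlapped (difference -0.21, SE 0.14, adjusted p = 0.419; 95% interval -0.51 to 0.08). In the head, which contacts the polymerase, 0 of 5 members were called, with a median of 0.25; MED11 came nearest with 0.60 (adjusted p = 0.0588).

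The tail, which many activators bind, had 1 of 9 members called and a median of -0.10. MED30 (ENSMMUG00000002068) had 487.8, 626.0 and 889.6 normalized counts in OvH and 733.6, 963.5 and 1131.3 in HT. In 5 HT animals it was above every OvH animal (difference 0.57, SE 0.16, adjusted p = 0.0424). MED16 had the lowest difference of all members, -0.58, with an adjusted p of 0.192. None of the 4 kinase module members was called, and their differences ran from -0.32 (MED13) to 0.18 (MED13L).

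In TFIID 4 of 17 members rose: TAF9, TAF11, TAF12 and TAF13. All 4 are histone-fold proteins, which work as pairs, a shared feature seen only after the calls were known. Other histone-fold members were not called: the differences were -0.04 for TAF3, 0.10 for TAF8, 0.26 for TAF10, 0.07 for TAF4B and 0.18 for TAF9B (adjusted p from 0.374 to 0.908). TAF13 (ENSMMUG00000065038) had 2123.5, 2870.1 and 3585.2 normalized counts in OvH and 4573.7, 5662.9 and 7225.0 in HT. Every HT library was above every OvH library, as for 0.744% of all identifiers, and the difference was 0.93 (SE 0.13, adjusted p = 0.00674). Its histone-fold partner TAF11 (ENSMMUG00000021715) had 1882.1, 2177.7 and 2865.8 in OvH and 2089.1, 3526.8 and 4266.9 in HT. In 6 HT animals it exceeded every OvH animal (difference 0.59, SE 0.15, adjusted p = 0.0297).

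In the pairs of TAF12 with TAF4 and of TAF9 with TAF6, 1 partner was called. TAF12 (ENSMMUG00000050311) had 1096.8, 1586.9 and 2279.1 normalized counts in OvH and 2048.4, 2463.4 and 3176.2 in HT (difference 0.63, SE 0.15, adjusted p = 0.0204); 5 HT animals were above every OvH animal. Its partner TAF4 had a difference of 0.04 (adjusted p = 0.942). TAF4 did not meet the level limit outside amygdala (mean log2 level 7.74 in amygdala and 11.25 elsewhere). TAF9 (ENSMMUG00000046550) had 10953.5, 12736.8 and 15778.9 in OvH and 13712.0, 19684.2 and 27424.8 in HT (difference 0.57, SE 0.15, adjusted p = 0.0329), with 6 HT animals above the OvH range. Its call was also lost with the replicate block (adjusted p = 0.0719). Its partner TAF6 had -0.25 (adjusted p = 0.3). TAF9 and the kinase gene AK6 share a locus in primates, so the authors' counting could have split or merged their reads, and its value is uncertain.

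TAF1 (ENSMMUG00000005663), the largest TFIID subunit and the one that touches DNA at the start site, had 1164.5, 2076.9 and 2457.2 normalized counts in OvH and 1666.2, 2054.8 and 3359.8 in HT. The medians were close and the groups overlapped (difference 0.15, SE 0.18, adjusted p = 0.684; 95% interval -0.23 to 0.52). TAF5, which carries WD repeats and lies at the centre of TFIID, had 262, 292.5 and 350.4 in OvH and 181.2, 213.6 and 277.6 in HT. It is described here because its groups were nearly apart, which was seen in the data: in 6 HT animals it was below every OvH animal, and the difference of -0.45 did not pass the test (adjusted p = 0.116). TAF1L, a retrocopy of TAF1, was near the floor with medians of 10.89 and 10.86, and its reads may not be separable from those of its parent gene.

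TAF1D (ENSMMUG00000011646) belongs to the selectivity factor that brings RNA polymerase I to ribosomal DNA. It had 1244.0, 1639.4 and 2240.0 normalized counts in OvH and 1653.0, 3759.7 and 4190.0 in HT, with 6 HT animals above every OvH animal (difference 1.04, SE 0.19, adjusted p = 0.00757). The other 3 subunits of that factor were not called, with differences from -0.21 (TAF1B) to 0.18 (TAF1C). TAF5L, TAF6L and TAF15 had -0.27, -0.37 and -0.19 and were not called.

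**Figure D2:**
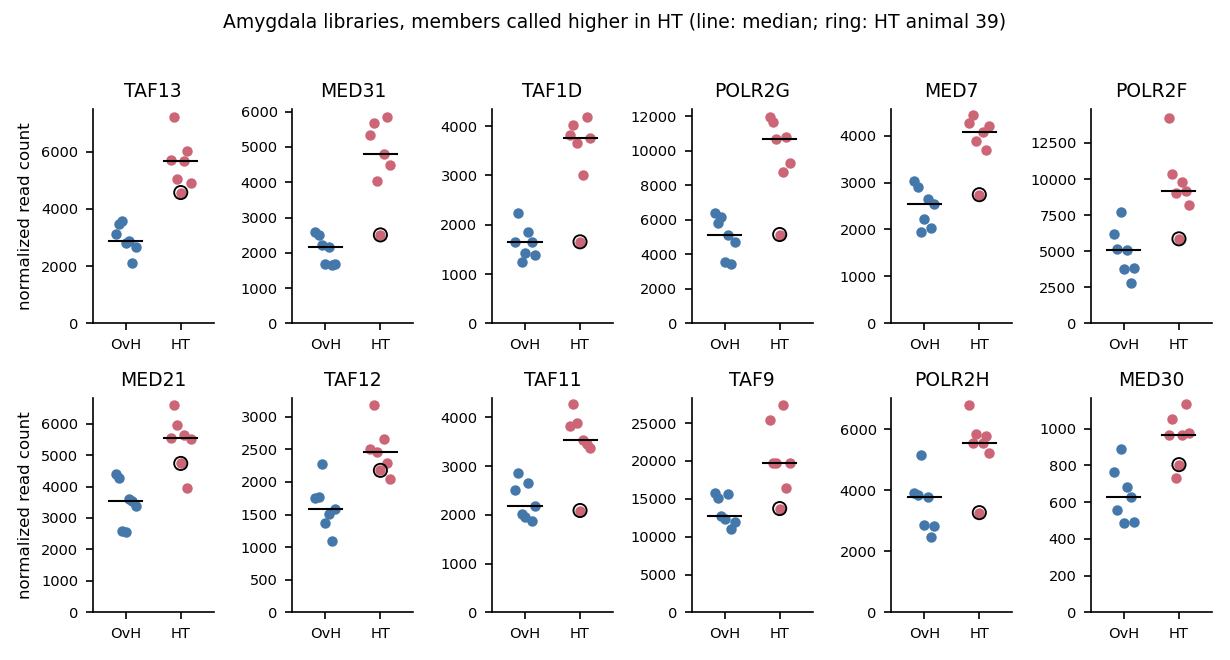
Normalized read count in each amygdala library (vertical axis, from 0) for the 12 members that rose; blue points are the 7 OvH and red points the 7 HT animals, lines are medians, and the ring marks HT animal 39. TAF13 is the only one of the 12 without overlap, with HT libraries from 4573.7 against an OvH maximum of 3585.2; the ringed library lies in or near the OvH range in most panels.

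The 12 genes were called from these same libraries, so HT animals standing above OvH animals for them follows largely from that choice. HT animals 36, 37 and 40 were above every OvH animal for all 12 genes and animals 38, 41 and 42 for 11, but animal 39 for 2. Transcripts of cytosolic ribosomal proteins moved with them: 63 of 73 identifiers of that list were higher in HT and 0 lower, and their summed level ran from 2254621.1 to 4183854.5 in OvH and from 3468396.7 to 11844033.4 in HT. The mean log2 level of that list was 14.74 in animal 39, 15.79 to 16.38 in the other HT animals and 14.12 to 15.06 in OvH. With that mean as a covariate 0 of 62 members were called and 1 reached an unadjusted p under 0.05. Of all 16129 identifiers 0% were then called in each direction, and 2.48% reached that unadjusted p. The covariate differs between the treatments, so its part and that of estradiol cannot be told apart.

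Some cell type markers were called, where 6.16% of all identifiers were higher in HT and 0.732% lower. Of 16 measured oligodendrocyte and myelin markers 3 were higher in HT and 0 lower, with summed levels of 360957.0 to 1272745.9 in OvH and 801200.0 to 1632816.2 in HT. Of 17 neuronal markers 3 were lower and 0 higher (638891.9 to 958571.9 in OvH, 604977.0 to 809140.4 in HT). For astrocytes 1 of 9 and for microglia 1 of 9 markers were higher, no endothelial, choroid plexus or meningeal marker was called, and no measured marker was at 0. These lists mark cell types of brain tissue and do not tell the 4 regions from each other. With the myelin mean as a covariate 6 members remained called higher, all 6 from among the 12; of all identifiers 2.7% were then higher and 0.254% lower.

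The number of calls also moved with the scaling. When libraries were scaled to equal totals, the median of all identifiers shifted to -0.20, and 6 members were higher and 6 lower (3.83% and 6.28% of all identifiers); higher calls made up 37.89% of all calls, against 89.39% before. The 6 called lower there were TAF5, POLR2B, POLR2E, TAF6, MED24 and MED9. On recovered reads edgeR with TMM called 7 higher and 0 lower (4.19% and 2.13% of all identifiers), with higher calls at 66.31% of all calls. DESeq2 called 15 higher and 1 lower, TAF5 (8.08% and 2.79%), with higher calls at 74.33%. All 12 members lay above 0 under each of these scalings, and TAF13, MED31, TAF1D, POLR2G, MED7 and POLR2F were called under each of them. Across the 4 scalings 24 members were always higher, 28 always lower and 10 changed direction, TAF1 among these.

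Leaving out animals 1 at a time kept the calls of TAF13, MED31, TAF1D, POLR2G, MED7, POLR2F and MED21 in all 14 cases, though MED21 lost its call with the replicate block (adjusted p = 0.0947). That block could use 49 members, of which 8 were called higher and 0 lower (5.69% and 1.09% of all identifiers). The other 5 were less stable: without OvH animal 33 all 5 lost their call, leaving 7 members called against 3.31% of all identifiers (adjusted p = 0.0555 for TAF12, which lost it in this case only). TAF11 and TAF9 also lost it without 35, 36, 37, 38, 40, 42 or 43 (adjusted p up to 0.0758 and 0.0813). POLR2H also lost it without 34 to 38 or 40 to 43 taken singly (up to 0.103), and MED30 without 31, 34 to 37 or 40 to 43 (up to 0.108).

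Neighbouring genes of the pathway were read from fixed lists. Of 19 general factors 3 were higher and 1 lower in amygdala HT, where 6.16% of all identifiers were higher and 0.732% lower. GTF2H5, the smallest subunit of TFIIH, had medians of 4378.9 in OvH and 8394.5 in HT (difference 0.89, adjusted p = 0.00841), and GTF2B, which joins the polymerase to TBP, had 5085.7 and 8633.2 (0.67, adjusted p = 0.0149). GTF2F1, the large subunit of TFIIF, was the one that fell (-0.71, adjusted p = 0.0386).

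The partners of the kinase module split. CCNC, its cyclin, rose (difference 0.52, adjusted p = 0.0464), while the kinases CDK8 and CDK19 had 0.26 and 0.21 and were not called. Of 25 pausing and elongation genes 4 were higher and 1 lower, against 6.16% and 0.732% of all identifiers. SUPT4H1, the small subunit of the elongation factor DSIF, had medians of 10867.7 and 18529.4 (difference 0.77, adjusted p = 0.00899), and ELOA, the active subunit of elongin, 44430.1 and 76444.3 (0.998, adjusted p = 0.00945).

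Of 18 other subunits of polymerases I and III 4 were higher and 1 lower, against 6.16% and 0.732% of all identifiers. POLR1D, common to both enzymes, had 4210.8 and 5729.5 (difference 0.56, adjusted p = 0.0107), and POLR1H, a small subunit of polymerase I, had 1145.3 and 2368.9 (0.93, adjusted p = 0.0112). POLR3A, the catalytic subunit of polymerase III, fell (-0.51, adjusted p = 0.0357). Outside the amygdala 0 genes of these 4 lists were called by limma.

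In hippocampus, occipital cortex and prefrontal cortex 0 of 49 members were called by limma between HT and OvH, and 0% of all identifiers were called in each region; edgeR and DESeq2 also called 0 members there. At an unadjusted p under 0.05 there were 0, 0 and 2 members, against 2.05%, 1.88% and 3.70% of all identifiers. Member differences ran from -0.33 to 0.36 in hippocampus, from -0.29 to 0.24 in occipital cortex and from -0.29 to 0.27 in prefrontal cortex.

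The members at an unadjusted p under 0.05 were MED6 and POLR2B in prefrontal cortex. MED6, a head subunit, had 1678.6, 1988.5 and 2193.6 normalized counts in OvH and 1852.2, 2348.6 and 2636.5 in HT (difference 0.24, SE 0.10, limma adjusted p = 0.9999). POLR2B had 5540.7, 6617.8 and 7501.5 in OvH and 6706.7, 7651.7 and 9212.0 in HT (0.22, SE 0.10, limma adjusted p = 0.9999). Both pairs of groups overlapped. All 11 TFIID members in prefrontal cortex had differences above 0, but small ones, from 0.01 to 0.15. Of all identifiers 50.2% lay above 0 there.

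In hippocampus the members with the smallest p were TAF1 and MED12. TAF1 had 1543.1, 2194.0 and 3010.2 normalized counts in OvH and 2148.3, 2551.4 and 3345.4 in HT (0.27, SE 0.16), and MED12, the subunit that activates the Mediator kinase, had 2202.1, 2753.7 and 3249.1 and 2351.1, 3241.7 and 3867.0 (0.20, SE 0.14). All 4 kinase module members lay above 0 in hippocampus and all 4 below 0 in prefrontal cortex, none of them called. Of all identifiers 53.3% lay above 0 in hippocampus and 50.2% in prefrontal cortex.

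In occipital cortex they were MED29, a tail subunit, with 8779.7, 9932.6 and 12149.7 normalized counts in OvH and 8597.2, 8988.2 and 9424.6 in HT (-0.18, SE 0.10), and POLR2E, with 9406.3, 11246.5 and 13860.6 and 7555.0, 9376.0 and 13620.4 (-0.26, SE 0.15). Here 5 OvH animals were above every HT animal for MED29. All 6 tail members lay below 0 in occipital cortex, from -0.29 to -0.05, where 50.4% of all identifiers lay above 0.

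MED1, MED14 and TAF1 were not called in these regions, and the 95% intervals of their differences covered both directions. The differences of MED1 were 0.16 in hippocampus (95% interval -0.37 to 0.69), 0.09 in occipital cortex (-0.32 to 0.51) and -0.08 in prefrontal cortex (-0.56 to 0.40). Those of MED14 were 0.18 (-0.25 to 0.62), 0.08 (-0.32 to 0.48) and 0.08 (-0.17 to 0.33). Those of TAF1 in the cortical regions were 0.09 (-0.18 to 0.36) and 0.06 (-0.30 to 0.42), and the interval in hippocampus was -0.08 to 0.61. The hippocampal intervals of all 3 genes reach 0.61 or above, and so include changes as large as several of those called in amygdala.

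**Figure D3:**
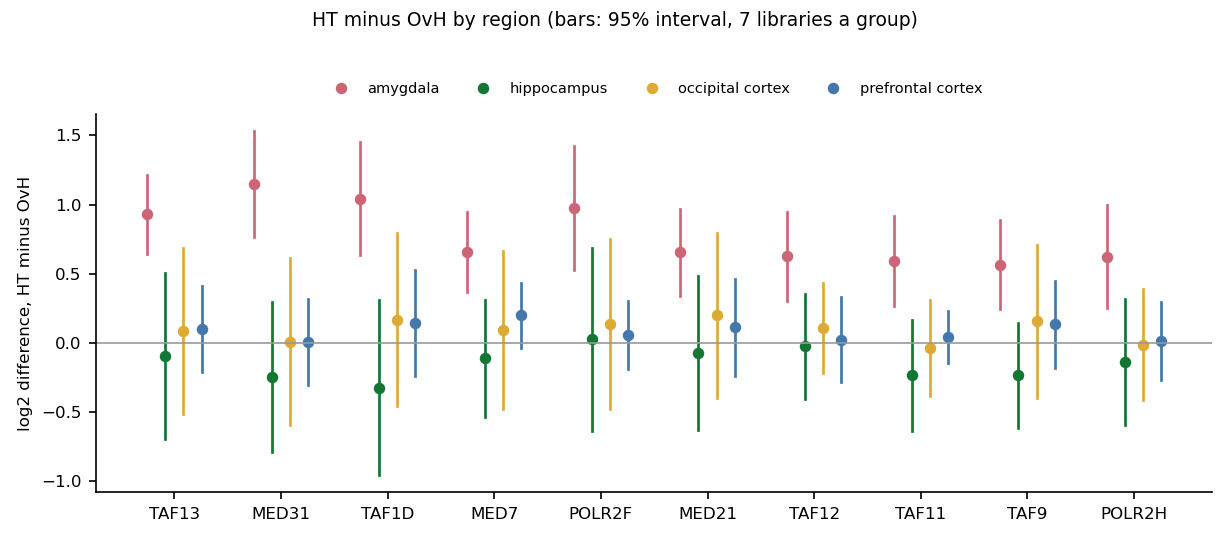
Difference between HT and OvH (vertical axis, log2) in the 4 regions for the 10 members that rose in amygdala and could be used elsewhere; points are estimates, bars the 95% interval, with 7 libraries a group. The amygdala points lie between 0.57 and 1.15, and each interval of the other regions includes 0.

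Averaged over the 3 regions outside amygdala, 0 of 49 members were called, with no member at an unadjusted p under 0.05 (3.16% of all identifiers). The smallest p values belonged to MED15, a tail subunit that activators bind (difference -0.15, SE 0.08), and POLR2E (-0.16, SE 0.09).

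Whether the HT difference in amygdala differed from that in the other 3 regions was tested directly, within animals. None of the 49 members was called, nor any of 13520 identifiers (0%); 19 members reached an unadjusted p under 0.05, against 22.8% of all. The smallest adjusted p was 0.0609, shared by several members. For MED31 the difference of differences was 1.22 (SE 0.25, 95% interval 0.69 to 1.76), for TAF13 0.90 (SE 0.21, 0.45 to 1.35) and for TAF1D 1.05 (SE 0.25, 0.51 to 1.59). The count depended on single animals: it was 7 without OvH animal 30, 9 without 31, 7 without 32, 11 without HT animal 39 and 10 without 40. The whole table moved likewise, with 6.06%, 5.38%, 6.09%, 8.57% and 7.07% of all identifiers called in these cases, in either direction. A difference between amygdala and the other regions therefore did not pass the threshold with all 14 animals.

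Between regions, with both treatments together and each animal compared with itself, members differed more. Against prefrontal cortex, 14 of 49 members were higher and 5 lower in occipital cortex (19.7% and 28.2% of all identifiers), and 6 were higher and 6 lower in hippocampus (20.9% and 22.6%). Hippocampus against occipital cortex gave 6 higher and 15 lower (28.1% and 22.6%). With libraries scaled to equal totals, hippocampus against prefrontal cortex gave 5 higher and 8 lower (16.4% and 27.1% of all identifiers), and higher calls fell from 48.02% to 37.67% of all calls. These comparisons share libraries. In all, 10 members were higher in occipital cortex than in both other regions, against 11.6% of all identifiers: POLR2C, POLR2H, MED6, MED9, MED17, MED19, TAF1A, TAF5, TAF11 and TAF12. Animals 30 and 43 were left out together as an alternative, though their labels do not set them apart from the other OvH animals. Without animals 30 and 43 the counts against prefrontal cortex were 17 higher and 5 lower for occipital cortex (20.4% and 29.1% of all identifiers) and 13 and 9 for hippocampus (24.7% and 27%). Hippocampus against occipital cortex then gave 5 and 15 (29.8% and 25.6%).

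Cell type markers also differed between the regions. Of all identifiers 20.9% were higher and 22.6% lower in hippocampus than in prefrontal cortex. The shares were 28.1% and 22.6% for hippocampus against occipital cortex, and 19.7% and 28.2% for occipital against prefrontal cortex. All 8 microglial markers were higher in hippocampus than in each cortical region, 9 of 11 myelin markers were higher in hippocampus than in prefrontal cortex, and 9 of 16 neuronal markers were lower in hippocampus than in occipital cortex (2 higher). Of the neuronal markers 6 were higher and 2 lower in occipital than in prefrontal cortex. Of 5 choroid plexus markers 4 were higher and 1 lower in hippocampus than in occipital cortex. Against prefrontal cortex 2 were higher and 1 lower in hippocampus. The summed level of these 5 in hippocampus ran from 397.6 to 1329399.4 in OvH and from 2262.3 to 1468028.9 in HT. Of 8 astrocyte markers 5 were higher and 1 lower in hippocampus than in prefrontal cortex. In occipital against prefrontal cortex 4 of 8 microglial markers were lower and 0 higher. For endothelial markers 4 of 8 were higher and 0 lower there. The part of all these cell type markers in the member differences was not tested.

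Of the 49 members 4 were higher in prefrontal cortex than in both other regions (9.91% of all identifiers), and 3 of these belong to the kinase module: MED12L, MED13 and MED13L. MED12L, a paralogue of MED12, had 144.1, 364.2 and 582.9 normalized counts in occipital cortex (lowest, median and highest of 14 libraries), 236.7, 459.5 and 1221.0 in hippocampus and 382.0, 905.2 and 1298.6 in prefrontal cortex. In 14 of 14 animals it was lower in occipital than in prefrontal cortex (difference -1.31, SE 0.20, limma adjusted p = 2.48e-06), and in 13 of 14 hippocampus was lower than prefrontal cortex (-0.70, limma adjusted p = 0.00452). It was the only member whose level differed in all 3 comparisons: hippocampus exceeded occipital cortex by 0.61 (limma adjusted p = 0.00979).

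MED13 and MED13L, paralogues that tether the kinase to Mediator, followed. MED13L had 1741.5, 3601.9 and 5268.0 normalized counts in occipital cortex, 2016.0, 3556.4 and 6722.0 in hippocampus and 2986.8, 6016.9 and 7509.9 in prefrontal cortex. It was lower than in prefrontal cortex in both occipital cortex (-0.71, SE 0.16, limma adjusted p = 0.000375) and hippocampus (-0.60, SE 0.16, limma adjusted p = 0.00227). MED13 had differences of -0.91 (limma adjusted p = 0.00155) and -0.59 (limma adjusted p = 0.0368). MED12 itself was not called (-0.25 in both, limma adjusted p = 0.0852 and 0.0876).

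The kinase and cyclin genes did not share that order. CDK8 was higher in hippocampus than in occipital cortex (0.46, limma adjusted p = 2.90e-05) and than in prefrontal cortex (0.32, limma adjusted p = 0.0029). CDK19 was higher in occipital than in prefrontal cortex (0.27, limma adjusted p = 0.0219), and CCNC was called in none of the comparisons.

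**Figure D4:**
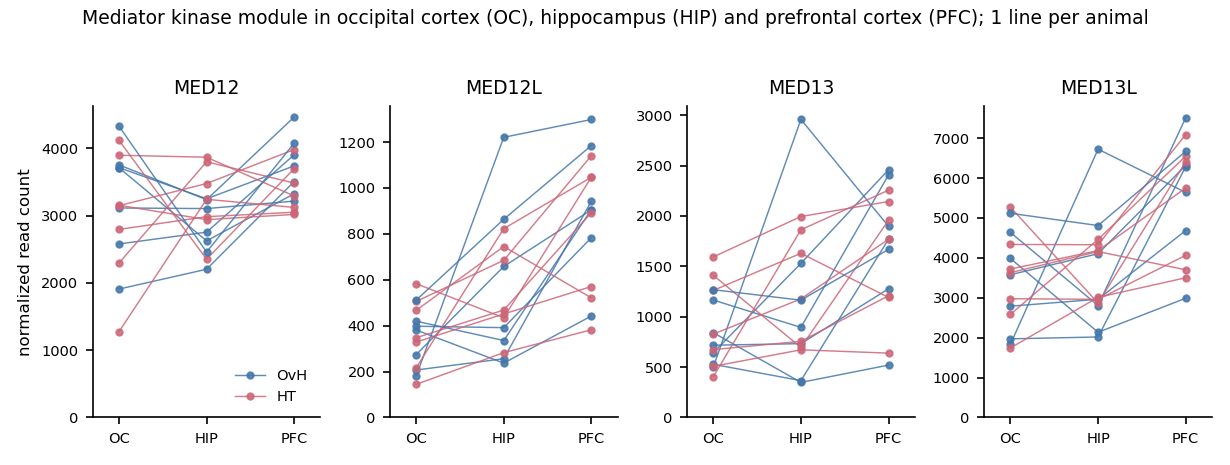
Normalized read count (vertical axis, from 0) of the 4 kinase module genes in occipital cortex, hippocampus and prefrontal cortex; each line joins the 3 libraries of 1 animal, blue for OvH and red for HT. MED12L is lower in occipital than in prefrontal cortex in all 14 animals, with medians of 364.2 and 905.2, while the lines of MED12 cross.

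MED29 and MED12L were the 2 members lower in occipital cortex than in both other regions (16.5% of all identifiers). MED29 had 8597.2, 9243.6 and 12149.7 normalized counts there, 10392.5, 13545.7 and 18278.7 in hippocampus and 11222.5, 12407.2 and 16010.7 in prefrontal cortex. The difference from prefrontal cortex was -0.41 (SE 0.07, limma adjusted p = 7.48e-06; lower in 14 of 14 animals), and hippocampus exceeded occipital cortex by 0.51 (SE 0.07, limma adjusted p = 1.35e-07; 13 of 14 animals).

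POLR2C, a polymerase subunit of the assembly platform, went the other way. It had 8093.1, 10675.2 and 15791.7 normalized counts in occipital cortex, 5958.7, 7109.7 and 10667.7 in hippocampus and 5835.7, 7570.7 and 8837.0 in prefrontal cortex. Occipital cortex exceeded prefrontal cortex by 0.52 (SE 0.09, limma adjusted p = 1.90e-05; 14 of 14 animals), and hippocampus was lower than occipital cortex (difference -0.57, SE 0.09, limma adjusted p = 2.55e-06; 13 of 14 animals).

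TAF11 had 1197.9, 1555.0 and 3171.5 normalized counts in hippocampus and 1825.8, 2302.9 and 4144.7 in occipital cortex (difference -0.52, SE 0.11, limma adjusted p = 0.000186; 12 of 14 animals). TAF6 was lowest in hippocampus, with 3483.9, 4193.7 and 5251.2 against 3454.9, 6061.3 and 7191.7 in occipital and 3883.4, 5489.5 and 6395.7 in prefrontal cortex. Its difference from prefrontal cortex was -0.33 (SE 0.08, limma adjusted p = 0.00104; lower in 14 of 14 animals) and from occipital cortex -0.47 (SE 0.08, limma adjusted p = 8.47e-06).

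TAF1C of the polymerase I factor was highest in prefrontal cortex, with 834.5, 1367.4 and 2988.0 normalized counts against 555.1, 795.5 and 1447.4 in occipital cortex and 578.4, 1030.6 and 1796.4 in hippocampus. The differences were -0.83 (SE 0.15, limma adjusted p = 4.18e-05) and -0.59 (SE 0.15, limma adjusted p = 0.00206). MED18, a head subunit, had 271, 804 and 1077.4 in hippocampus and 419.5, 490.5 and 799.6 in prefrontal cortex (difference 0.53, SE 0.12, limma adjusted p = 0.000567; higher in 13 of 14 animals). The ranges of both genes overlapped between regions.

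In none of the 3 region comparisons were 19 of 49 members called, as was so for 26.6% of all identifiers. Among these were TAF13, MED31 and TAF1D, which had the smallest adjusted p values of the HT comparison in amygdala, and also MED1, MED12 and MED14. Between animals of a group, the median SD of members on the log2 scale was 0.31 in OvH and 0.30 in HT amygdala, against 0.40 and 0.37 over all identifiers. MED13 had the widest spread of all members in 6 of the 8 groups.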

How the data were processed

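Messenger RNA libraries (TruSeq stranded kit, paired ends, per the labels' protocols) from 14 animals and 4 regions were analysed. The deposited table holds a normalized read signal: the authors scaled read counts so that the upper quartile was 2818.9375 in all 56 libraries. Per the submitters' processing notes, FastQC 0.1.1.2, Trimmomatic, STAR 2.7.3a, the build Mmul_10 and edgeR 3.28.0 were used; the counting program, annotation release and use of strand are not given in the sources used here. Undoing the scaling gave whole reads for 100% of values (within 0.01 reads).

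The main test was limma-trend (limma 3.58.1 under R 4.3.3) on log2(value + 1), two-sided, over identifiers with a mean of at least 10, per region; a fold is on that scale and understates changes of low genes. Regions were compared with the animal as a block, since the labels give the 4 libraries of an animal 1 subject number (mean correlation of deviations 0.287 to 0.494 per pair of regions). edgeR 4.0.16 and DESeq2 1.42.0 on recovered reads, other scalings, filters, covariates and leaving out animals were alternatives. The scripts were tested on simulated data. No library was a near copy of another (lowest chi-square per degree of freedom 35.55).

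Members, lists and tests were chosen with earlier results of these data known. Detailed values were planned for the 12 members of smallest p in amygdala, and for POLR2A, MED1, MED14 and TAF1. They were also planned for the members of smallest p elsewhere. These were 2 in each other region and in their average, 4 in each comparison of regions and 3 in the test of the difference. Outside amygdala, group levels or adjusted p values were not printed for some of these. TAF5 in amygdala, and MED12, MED13 and the kinase and cyclin genes between regions, were singled out after their values were seen. POLR2A was used in amygdala only. A comparison with protein length was planned and not run, because no protein table was used here. The gene names table and a RefSeq table of another assembly gave names only, so no coordinates are printed.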

Additional observations from a re-analysis of the deposited data

Results flagged for a closer look

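Single libraries far from the rest of their group were looked for in 60 groups of 7 libraries (named members by region and treatment), where chance marks about 1 in 20. There were 3, all in amygdala. TAF11 in HT had its lowest library, 2089.1 normalized counts, in animal 39, with 3360.5 as the next value. POLR2A in HT had its highest library, 5027.7, in animal 41, with 3359.8 next. MED1 in OvH had its lowest library, 664.5, in animal 32, with 1179.0 next. The cause of these values was not tested.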

How the results depend on the processing

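In amygdala the count of members called higher was 12, and became 6 with libraries scaled to equal totals, 7 with edgeR and TMM, 6 with the myelin mean and 0 with the ribosomal protein mean as covariate (2.7% and 0% of all identifiers), and 7 (without OvH animal 33) to 15 with single animals left out. The count called lower was 0, and became 6 with equal totals, 1 with DESeq2 and 0 to 1 with single animals left out (1 without OvH animals 31 or 32). With the replicate block, which joins the libraries of an animal over all regions and could use 49 members, 8 were called higher and 0 lower; MED21 and TAF9 lost their calls there (adjusted p = 0.0947 and 0.0719). For the regional difference of the HT effect the count was 0, and became 1 with equal totals and 0 to 11 with single animals left out. With equal totals 120 of all 13520 identifiers were then called higher and 385 lower. For hippocampus against prefrontal cortex the 6 members called higher became 13 without animals 30 and 43, and 4 to 11 with single animals left out (11 without animal 30). With no replicate block that comparison gave 5 higher and 4 lower, occipital against prefrontal cortex 11 and 5, and hippocampus against occipital cortex 4 and 13. Of all 16354 identifiers 2828 were then higher and 3022 lower, 2779 and 3880, and 3943 and 3293, in the same order. Directions turned for POLR2H (-0.18) and MED14 (0.17) in amygdala with the ribosomal covariate, and for TAF1 (-0.0655) there with equal totals. With single animals left out, POLR2H kept 0.54 to 0.74, MED14 -0.28 to -0.17 and TAF1 0.02 to 0.21 in amygdala. In prefrontal cortex the small differences of MED1 (-0.25 to 0.0407), MED14 (-0.0021 to 0.12) and TAF1 (-0.077 to 0.15) crossed 0, without HT animal 40 for MED1 and without OvH animal 32 for the others. The causes were not tested. In hippocampus, occipital cortex, prefrontal cortex and their average 0 members were called under every alternative run.

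With 7 animals a group, intervals of single members are wide, and the regional difference of the HT effect is the least certain result. Names outside the amygdala rest on matching levels. The normalized totals differ between the treatments in amygdala, so counts of higher and lower calls depend on the scaling. Nothing in the labels gives a batch, dissection or RNA quality for a library, so their part was not tested.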
